A study of Gallus gallus with 3 samples.

Results

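Molecular chaperones and protein folding genes of the endoplasmic reticulum (ER) were examined in DT40, a lymphoma line of chicken B cells. The cells were taken after 4 h either without peptide (0 µg/ml) or with a peptide isolated from the bursa of Fabricius, where chicken B cells develop. BP5 was used at 0.02 µg/ml and the other peptide, BSP-II, at 2 µg/ml. All 3 groups were the same line, grown in medium with fetal bovine and avian serum. The submitters describe several experiments and cell populations, and the sources used here do not say how these map to the 3 arrays. Each group's RNA was hybridised to 1 array, a 1-colour Agilent design for chicken. Differences below thus come without replicates, and with no p-value or standard deviation.

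The members were the genes whose chicken symbol begins with HSP, DNAJ, CCT followed by a digit from 2 to 8, PDIA, SEL1, EDEM, ATF followed by a digit, HYOU, FKBP or PPI followed by a letter from A to H, together with CRYAB, CALR, CANX, DDIT3 and ERN1. Of the 3870 genes that could be named on the array, 43 fitted, with 45 probes. By the place of their protein, 18 were cytosolic chaperones, 16 worked in or on the ER and 4 in mitochondria. ATF4 was the only member of ER stress signalling. The remaining 4, listed as other members, were the endosomal J protein DNAJC13, the small GTPase with a J domain DNAJC27, the transcription factor ATF2 and the chromatin factor ATF7IP. The last 2 fit the rule by their letters and are no chaperones.

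Chaperones bind polypeptides that have not reached their fold. HSP70 proteins work in cycles of ATP hydrolysis with J proteins, which bring them clients, small heat shock proteins hold unfolded chains without ATP, and the ring-shaped chaperonin TRiC folds actin, tubulin and other proteins inside its cavity. In the ER, the HSP70 protein HSPA5 and the HSP90 protein HSP90B1 fold secreted and membrane proteins, CANX binds their glycans and protein disulfide isomerases such as PDIA3 and PDIA4 form their disulfide bonds. Chains that fail are passed to the cytosol for degradation through EDEM1 and the SEL1L ubiquitin ligase complex. When unfolded protein gathers in the ER, the unfolded protein response raises many of these genes through XBP1, ATF6 and ATF4, a programme that B cells also use when they turn to antibody secretion.

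Signals are given as a multiple of the array's 75th percentile (scaled signal). That percentile was 254.8 for the control, 178.7 for BP5 and 154.1 for BSP-II. A log2 ratio is the difference of log2 scaled signals, and the ± beside it combines the errors that the scanner software gave the spots compared, which cover neither culture nor labelling. The threshold for calling a gene higher or lower was 2-fold. The control array was read in a scan of its own and both peptide arrays in another, so in both comparisons with the control, which share that array, the scan and the treatment cannot be told apart. In RNA of whole cultures, fewer cells of a type and less RNA per cell cannot be told apart either.

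B cell identity was only partly visible. Of 12 B cell markers with a named probe, 8 were well above background on the control array, including JCHAIN and POU2AF1, while the probes for PAX5, EBF1, CD79B and CD40 were below it on all 3 arrays. These B cell markers summed to a scaled signal of 180.4 on the control array, 193.2 with BP5 and 214.6 with BSP-II, most of it from JCHAIN, and without JCHAIN to 13.99, 15.5 and 15.4. Of 18 markers of T cells, macrophages and granulocytes, thrombocytes and erythroid cells, and fibroblasts, epithelium and endothelium, 8 were well above background on the control array and 7 on each peptide array, with sums of 35.9, 27.7 and 36.3. CD3E, CD4, CD8A, TLR4, CSF3R, MARCO, COL1A2, COL3A1, KDR and CDH5 stayed below that level throughout. The T cell markers CD3D and CD247 and the macrophage and granulocyte markers CTSS and LYZ passed it on all 3 arrays. So did CDH1, CLDN3 and TUBB1, while TAL1 passed it on the control array alone. CD3D had unscaled signals of 3702.8, 2191.5 and 2540.4 on the control, BP5 and BSP-II arrays. Among the B cell markers only JCHAIN read higher than CD3D. Past 2-fold were the B cell marker LY86, higher with both peptides (1.06 and 1.08), the epithelial CLDN3, higher with BP5 (1.23), and the thrombocyte tubulin TUBB1, lower with BP5 (-1.003). After normexp, and for TUBB1 also after subtraction of neighbouring probes (-0.64), these ratios were short of 2-fold. Their part in the ratios below was not tested.

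Chaperone transcripts were detected almost throughout. On the control array 42 of the 43 members (97.7%) were well above background, against 73.3% of all named genes. On each peptide array 40 of 43 were (93.0%), against 68.1% of all named genes with BP5 and 69.0% with BSP-II. The exceptions were HSPB2, a small heat shock protein not well above background on any array, and FKBP5 and HSPE1, detected on the control array alone. FKBP5, an HSP90 co-chaperone, read 47.3 on the control array and 45.7 and 31.8 with BP5 and BSP-II. HSPE1, the mitochondrial co-chaperonin, read 44.8, 30.04 and 18.1. After scaling, both control readings (log2 -2.43 for FKBP5 and -2.51 for HSPE1) lay below the lowest detectable level of the peptide arrays, so no fold could be stated. The control reading of CRYAB lay lower still (-3.03). Its folds below could be given only because it was detected on the peptide arrays, where detection required a higher value. The TRiC subunit CCT6A was above background everywhere (scaled signals of 164.4, 155.4 and 175.1) but carried an outlier flag on the control array and was left out of the ratios. The other 39 members were measured on all 3 arrays.

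Of those 39, CRYAB passed 2-fold upwards with BP5 and 0 members downwards, where 2.91% of all 2578 measured genes were higher and 3.76% lower. With BSP-II, CRYAB and HSPB1 were at least 2-fold higher and DNAJC13 at least 2-fold lower, where 2.79% of 2615 genes were higher and 2.14% lower. These counts lay near the background shares, and for CRYAB with BP5 detection alone fixed the call, as given below. Of all genes past 2-fold with BP5, 43.6% were higher, and 57.1% with the scaling percentile taken over probes detected on all arrays, so the balance of directions over all genes depends on the scaling. With BSP-II 56.6% were higher, and 77.1% after normexp, a model-based background correction. The ratios of most members lay within 1.5-fold. At that threshold 6 members were higher and 3 lower with BP5, beside 8.3% and 10.8% of all genes, and 6 were higher and 2 lower with BSP-II, beside 9.9% and 6.85%. The median ratio of the 39 members was 0.10 with BP5, against -0.09 for all genes, and -0.02 with BSP-II, against 0.01.

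**Figure D1:**
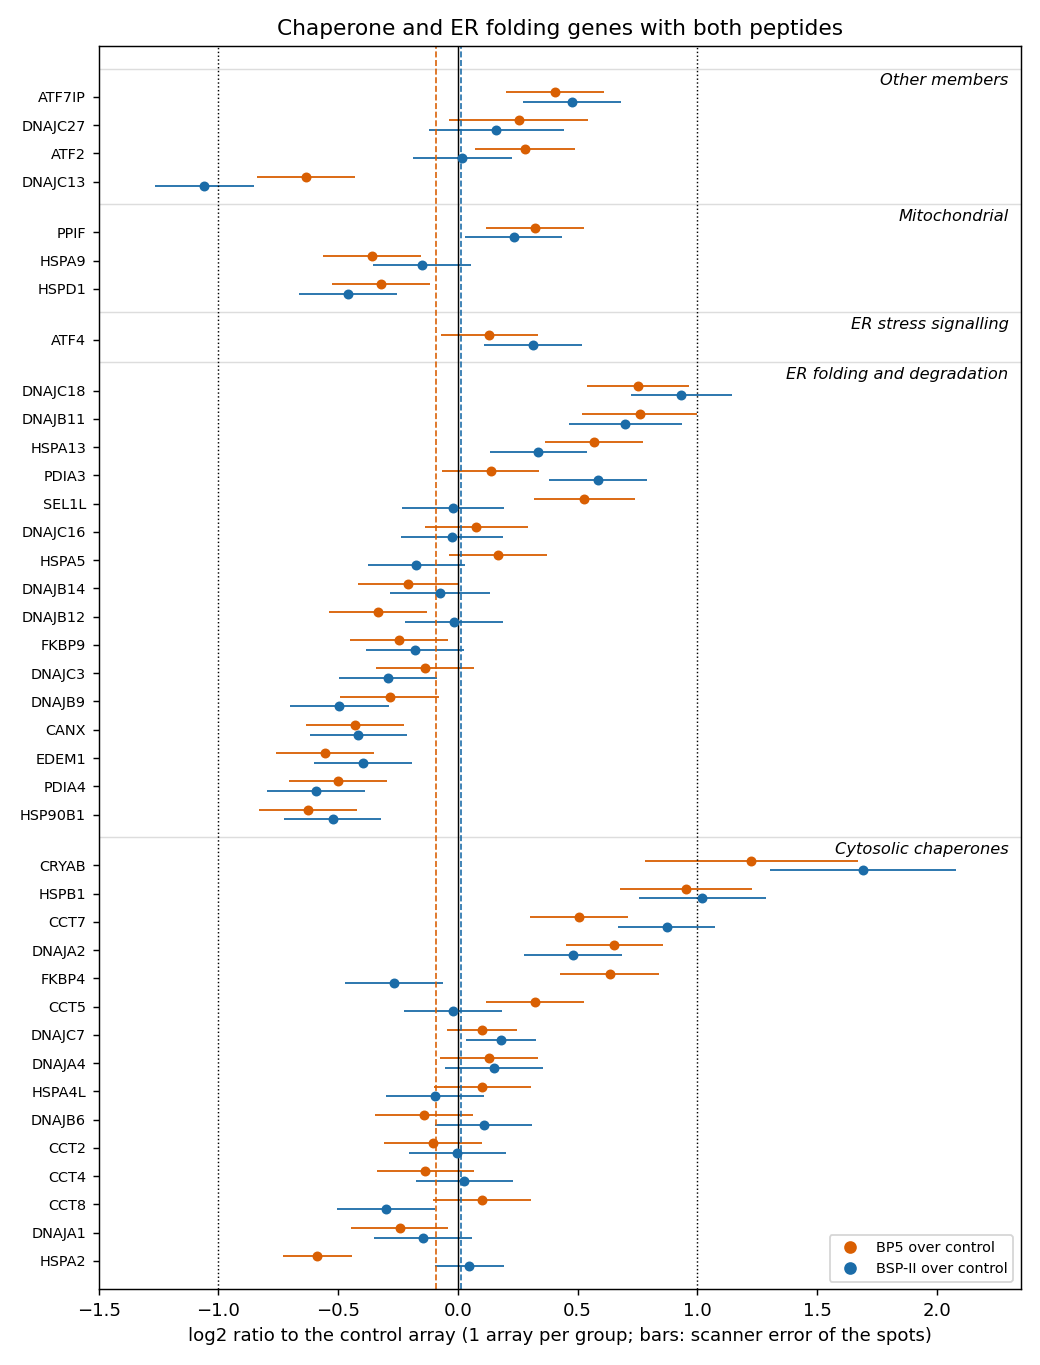
Log2 ratios to the control array of the 39 members measured on all arrays, by place of the protein, with BP5 (orange) and BSP-II (blue). Horizontal bars are scanner errors, dotted lines mark 2-fold and dashed lines the median of all genes. CRYAB and HSPB1 lie at the upper end, DNAJC13 at the lower end, and the ER members spread from HSP90B1 to DNAJC18.

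Among the cytosolic chaperones, the small heat shock proteins CRYAB and HSPB1 had the highest ratios to the control. CRYAB, the alphaB-crystallin that holds unfolded chains in muscle and lens, had a scaled signal of 0.122 on the control array, 0.286 with BP5 and 0.395 with BSP-II. It was 2.34-fold higher with BP5 (1.23 ± 0.44) and 3.23-fold with BSP-II (1.69 ± 0.39). Its probe was barely above background: it read 31.2 on the control array, where the dimmest probe called well above background read 30.2, and 51.15 on the BP5 array, where the dimmest read 49.1. After scaling its control value (log2 -3.03) lay below the lowest level well above background on the BP5 (-1.87) and BSP-II (-2.07) arrays. Any reading detected on those arrays thus gave a higher ratio, and with BP5 one past 2-fold. After normexp the CRYAB ratios were -0.08 and 0.08.

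HSPB1, the chicken homologue of HSP27, had scaled signals of 0.285, 0.551 and 0.578 on the control, BP5 and BSP-II arrays. Its ratio was 0.95 ± 0.28 with BP5 and 1.02 ± 0.26 with BSP-II, where it was 2.03-fold higher, and 0.07 between the peptides. Its probe was dim as well, at 72.5 on the control array, and the BSP-II ratio was 0.36 after normexp and 0.92 in the authors' normalized values. By the scanner's processed signal CRYAB and HSPB1 thus lay above the control on both peptide arrays, though for CRYAB detection alone fixed that side. Neither was past 2-fold after normexp.

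**Figure D2:**
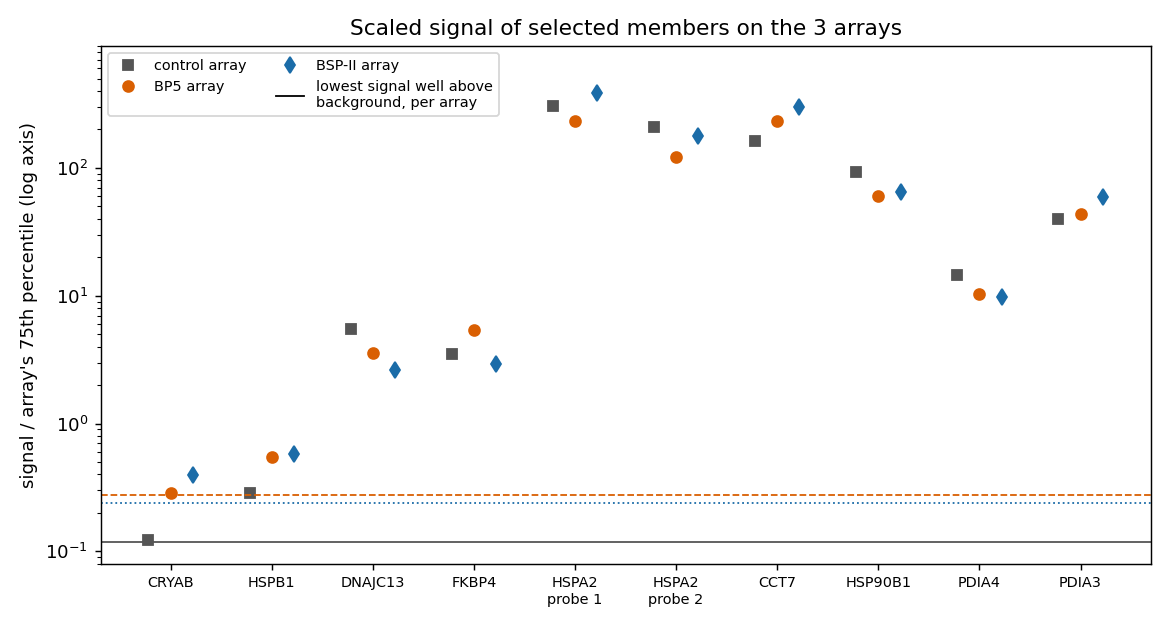
Scaled signal (signal over the array's 75th percentile, log axis) of 9 members on the control, BP5 and BSP-II arrays, 1 point per array and probe. Horizontal lines give each array's lowest signal well above background. CRYAB lies on that line on the control and BP5 arrays, and apart from HSPB1 the other members shown lie at 2.64 or above.

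TRiC subunits differed in their ratios. CCT7, the eta subunit, had scaled signals of 162.7, 231.2 and 297.6, with ratios of 0.51 ± 0.20 for BP5 and 0.87 ± 0.20 for BSP-II. After normexp the BSP-II ratio passed 2-fold, at 1.19, while with the neighbouring probes subtracted it was 0.70. CCT2 read 216.7, 201.6 and 216.4, and CCT4 160.8, 146.4 and 163.8, so that both stayed within 1.098-fold of the control. CCT5 had ratios of 0.32 with BP5 and -0.02 with BSP-II. CCT8 read 25.5, 27.4 and 20.8, with ratios of 0.10 and -0.30. In the main setting CCT7 was the only one of these 5 subunits past 1.5-fold in any comparison. With the neighbouring probes subtracted CCT5 was also past it with BP5, at 0.59. TCP1, the alpha subunit, whose symbol lies outside the rule, had ratios of -0.40 and -0.03. With BSP-II the measured subunits of this single complex thus ranged from -0.30 to 0.87 on these arrays.

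The HSP70 gene HSPA2 was read by 2 probes. The first had scaled signals of 306.3, 232.6 and 385.8, the second 209.6, 122.4 and 177.8. Both were lower with BP5 (-0.40 and -0.78), giving a mean of -0.59 ± 0.14, but with BSP-II they had opposite signs (0.33 and -0.24). The first probe lies in column 3 of the array, where the neighbouring probes, those detected within 10 rows and columns, had a median ratio of 0.33 with BSP-II. After subtraction of the neighbours the 2 probes gave 0.01 and -0.04 with BSP-II and -0.58 and -0.49 with BP5. HSP70 genes resemble each other in sequence, and whether other transcripts bound these probes was not tested. HSPA4L, an HSP110 protein that exchanges the nucleotide of HSP70, had ratios of 0.10 and -0.09.

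Of the cytosolic J proteins, DNAJA2, which works with HSP70 in refolding, was the highest. Its scaled signals were 67.8, 106.6 and 94.6, with ratios of 0.65 ± 0.20 for BP5 and 0.48 ± 0.20 for BSP-II, and 0.35 and 0.18 after subtraction of the neighbouring probes. DNAJA1, its close relative, read 42.7, 36.0 and 38.5 (-0.24 and -0.15). DNAJA4, DNAJB6 and DNAJC7 had ratios between -0.14 and 0.18. For DNAJC7 this is the mean of 2 probes that differed in sign. They gave 0.28 and -0.07 with BP5 and 0.37 and -0.01 with BSP-II. After subtraction of the neighbours they gave 0.01 and 0.19 with BP5 and -0.04 and 0.14 with BSP-II. Thus DNAJA2 and DNAJA1 lay on opposite sides of the control with both peptides, except after normexp, where DNAJA1 was at 0.13 with each. Between the peptides DNAJA1 was at 0.10.

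FKBP4, an immunophilin that rides on HSP90 in steroid receptor complexes, read differently on the peptide arrays, whose doses differed too. Its scaled signals were 3.49 on the control array, 5.41 with BP5 and 2.90 with BSP-II. The ratio to the control was 0.63 ± 0.20 for BP5 and -0.27 ± 0.21 for BSP-II. It thus lay above the control on 1 peptide array and below it on the other, there by little more than the scanner error. Relative to the median of all genes it ranged over the settings from 0.52 to 0.74 with BP5 and from -0.38 to -0.21 with BSP-II. In all, 10 of the 15 measured cytosolic members lay above the median of all genes with BP5 and 9 of 15 with BSP-II.

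In the ER, 0 of 16 members were past 2-fold in any comparison, beside at most 3.76% of all genes in any comparison and direction. For so few members this count lay near the background shares. The ER ratios ran from -0.63 for HSP90B1 with BP5 to 0.93 for DNAJC18 with BSP-II. Of the 7 ER J proteins, 4 lay below the median of all genes with BP5 and 5 with BSP-II, and of the 9 other ER members 5 and 7. HSP90B1, the ER form of HSP90, had scaled signals of 93.2 on the control array, 60.3 with BP5 and 64.8 with BSP-II. Its ratios were -0.63 ± 0.20 and -0.52 ± 0.20. PDIA4, a disulfide isomerase, read 14.6, 10.3 and 9.69 (-0.50 and -0.59). Both peptide arrays were below the control for each of these genes.

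CANX, the lectin that retains unfinished glycoproteins, followed with scaled signals of 34.3, 25.4 and 25.7 (-0.43 and -0.42). EDEM1, which trims glycans of misfolded chains for degradation, read 36.1, 24.6 and 27.5 (-0.56 and -0.40). DNAJB9, a J protein that binds HSPA5 and restrains the sensor ERN1, read 2.50, 2.05 and 1.77 (-0.28 and -0.50). These 5 genes lay below the control on both peptide arrays, with folds from 1.22 for DNAJB9 to 1.54 for HSP90B1 with BP5. Relative to the median of all genes, HSP90B1 kept its side under quantile normalization, normexp, the authors' values and neighbour subtraction, between -0.59 and -0.30. So did PDIA4 (-0.54 to -0.27), CANX (-0.42 to -0.13), EDEM1 (-0.41 to -0.10) and DNAJB9 (-0.46 to -0.05). By the same measure 6 ER members, these 5 and DNAJB14, stayed below that median with both peptides. Another 4 stayed above it with both, namely DNAJB11, DNAJC18, HSPA13 and PDIA3.

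HSPA5 itself, the central ER chaperone known as BiP, did not share that pattern. Its scaled signals were 50.5, 56.7 and 44.8, with ratios of 0.17 ± 0.20 for BP5 and -0.17 ± 0.20 for BSP-II. In this main setting each was no larger than the scanner error. With the neighbouring probes subtracted the ratios were 0.47 and -0.01. After normexp the BSP-II ratio was 0.15, and the BP5 ratio lay 0.43 above the median of all genes. DNAJC3, a J protein of the ER that inhibits the kinase EIF2AK3, had ratios of -0.14 and -0.29. The peptidyl-prolyl isomerase FKBP9 (-0.25 and -0.18), the ER membrane J protein DNAJB14 (-0.21 and -0.07), and the J protein DNAJC16 (0.08 and -0.02) all lay within 1.5-fold of the control. DNAJB12, another J protein of the ER membrane, read 19.9, 15.8 and 19.7, with ratios of -0.33 and -0.02.

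At the upper end stood DNAJC18, a J protein of the ER membrane, with scaled signals of 0.951, 1.60 and 1.82. Its ratios were 0.75 ± 0.21 and 0.93 ± 0.21, and it stayed above the median of all genes in each of the 4 other ways of processing (0.41 to 0.96). DNAJB11, a J protein that hands substrates to HSPA5, read 0.454, 0.769 and 0.738 (0.76 ± 0.24 and 0.70 ± 0.24). Relative to the median of all genes its ratios were 0.10 and 0.05 after normexp. HSPA13, an HSP70 protein of microsomes, read 6.19, 9.18 and 7.81 (0.57 and 0.34). With the neighbouring probes subtracted its ratios were 0.39 and 0.08.

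PDIA3, the isomerase that works with calnexin on glycoproteins, had scaled signals of 39.8, 43.7 and 59.7. It was just past 1.5-fold with BSP-II (0.59 ± 0.20), while its ratio with BP5 was 0.14 ± 0.20. PDIA3 and PDIA4, of the same family, therefore lay on opposite sides of the control with BSP-II, 0.59 against -0.59. SEL1L, the adaptor of the ubiquitin ligase of the ER, read 1.29, 1.86 and 1.27, with ratios of 0.53 ± 0.21 for BP5 and -0.02 ± 0.21 for BSP-II. SEL1L and EDEM1, 2 successive steps of ER degradation, differed in sign with BP5.

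As a list, 9 of the 16 ER members lay below the median of all genes with BP5 and 12 of 16 with BSP-II. With both peptides 9 lay below it and 4 above. Both comparisons share the control array, and the share of all genes below with both was not counted. The median of the ER members minus that of all genes was -0.08 with BP5 and -0.14 with BSP-II, against 0.19 and 0.03 for the cytosolic members. With the neighbouring probes subtracted, the ER value became 0.11 with BP5, with 7 of 16 below, and -0.07 with BSP-II, with 9 of 16 below. Under quantile normalization the cytosolic value became 0.29 with BP5 and -0.08 with BSP-II.

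The mitochondrial chaperones and the other members were few. HSPD1, the chaperonin HSP60, had scaled signals of 204.5, 163.7 and 148.7 (-0.32 and -0.46), and HSPA9, the mitochondrial HSP70, 73.7, 57.4 and 66.4 (-0.36 and -0.15). PPIF, the cyclophilin of the mitochondrial permeability pore, lay on the other side, with 18.5, 23.1 and 21.8 (0.32 and 0.23). With neighbours subtracted PPIF was at -0.05 with BSP-II and HSPD1 at -0.05 with BP5, and after normexp HSPA9 was at 0.03 and 0.14.

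DNAJC13, an endosomal J protein that works on membrane sorting with HSP70, was the lowest member with both peptides in the main setting. Its scaled signals were 5.50 on the control array, 3.54 with BP5 and 2.64 with BSP-II. The ratio was -0.64 ± 0.21 for BP5 and -1.06 ± 0.21 for BSP-II, a 2.08-fold difference. It was -0.91 with BSP-II after subtraction of the neighbouring probes and -0.73 after normexp, both short of 2-fold. With BP5 that subtraction gave -0.34, above HSPA9 (-0.47) and both HSPA2 probes (-0.58 and -0.49). The other 3 lay within 1.5-fold of the control. DNAJC27 read 0.364, 0.434 and 0.407 (0.25 ± 0.29 and 0.16 ± 0.28). ATF2, of the ATF and CREB family, read 1.87, 2.27 and 1.90 (0.28 and 0.02). ATF7IP, a partner of the methyltransferase SETDB1, read 3.99, 5.29 and 5.55 (0.41 and 0.48).

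**Figure D3:**
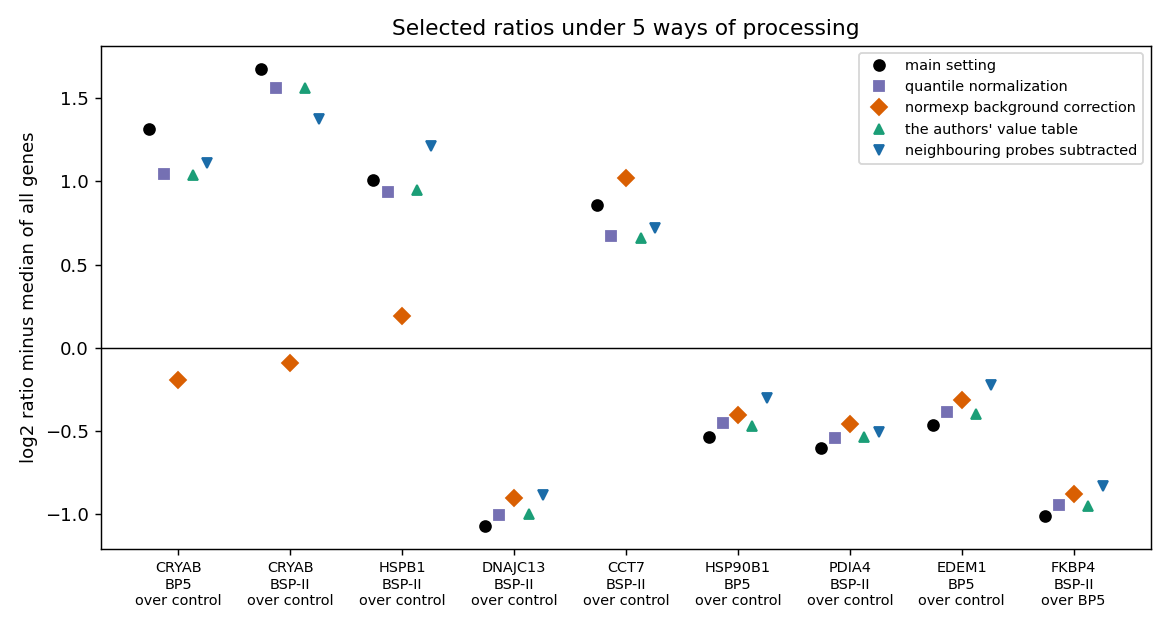
Log2 ratio minus the median of all genes for 9 pairs of gene and comparison under the main setting, quantile normalization, normexp, the authors' value table and subtraction of neighbouring probes, 1 point per setting. With normexp the CRYAB values are -0.19 and -0.09, while DNAJC13, HSP90B1, PDIA4, EDEM1 and FKBP4 stay below 0 and CCT7 above 0 in each setting.

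ER stress signalling was represented by ATF4, the transcription factor translated when EIF2AK3 or related kinases are active. Its scaled signals were 32.0, 35.1 and 39.8, with ratios of 0.13 ± 0.20 and 0.31 ± 0.20. Its transcript level does not report that translational control. Outside the rule, 29 genes of ER folding, translocation and stress from a wider list were measured. Of these 0 passed 2-fold in any comparison, beside at most 3.76% of all genes in any comparison and direction. XBP1 and OSTC did pass it with BSP-II after normexp (1.22 and 1.00). The median ratio of the list was -0.11 with BP5 and -0.00 with BSP-II, beside -0.09 and 0.01 for all genes. XBP1, the transcription factor that drives ER chaperones once its RNA is spliced, had the highest ratios of the list, 0.48 with BP5 and 0.95 with BSP-II. With the neighbouring probes subtracted they were 0.27, below UBE2J1 (0.60), SSR1 (0.475) and SEC62 (0.30), and 0.53. Unspliced and spliced XBP1 RNA cannot be told apart by this probe's value.

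SSR1, of the translocon-associated complex, came next with BP5 (0.47), and OSTC, of the oligosaccharyltransferase, with BSP-II (0.67). The lowest with BP5 were the transcription factor CEBPB (-0.55) and the ER selenoprotein SELENOK (-0.50). With BSP-II they were EIF2S1 (-0.45), the translation factor whose phosphorylation favours ATF4 translation, and the translocon J protein SEC63 (-0.35). Among 10 cytosolic folding partners of a second wider list 0 passed 2-fold either, beside the same shares of all genes. STUB1, a ubiquitin ligase that takes over chaperone clients, had the highest ratio with BP5 (0.29), and CHORDC1, an HSP90 partner, the highest with BSP-II (0.45). Second highest were SUGT1 with BP5 (0.07) and NUDC with BSP-II (0.34). BAG1, a nucleotide exchange factor of HSP70, had the lowest with both (-0.51 and -0.41), followed by the HSP90 kinase partner CDC37 with BP5 (-0.43) and the TRiC partner PDCL3 with BSP-II (-0.23). With the neighbouring probes subtracted BAG1 was at -0.21 and -0.09 and CHORDC1 at 0.08 with BSP-II, while CDC37 (-0.49 with BP5) and SUGT1 (-0.33 with BSP-II) were the lowest and STUB1 the highest with both (0.45 and 0.37).

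A last comparison set BSP-II against BP5. Both arrays came from the same scan, but the doses differed, so peptide and dose cannot be told apart. Of the 39 members 0 passed 2-fold upwards and 0 downwards with BSP-II over BP5, where 1.48% and 0.117% of all 2569 measured genes were. At 1.5-fold, HSPA2 was higher and FKBP4 lower, beside 5.76% and 2.14% of all genes. The median of all genes was 0.11 in this comparison.

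FKBP4 had the lowest ratio, -0.90 ± 0.21. It passed 2-fold, at -1.02, with the scaling percentile taken over probes detected on all arrays. Relative to the median of all genes it kept its side in each of the 4 other ways of processing, between -0.95 and -0.83. In the main setting HSPA2 had the highest, 0.63 ± 0.14, with 0.73 and 0.54 by its 2 probes. Next came CRYAB (0.47 ± 0.39) and PDIA3 (0.45 ± 0.20) above, and SEL1L (-0.55 ± 0.22), DNAJC13 (-0.42 ± 0.21), CCT8 (-0.40 ± 0.20) and HSPA5 (-0.34 ± 0.20) below. Quantile normalization took HSPA2 to 0.30, and the authors' log2 values gave 0.32, both below CRYAB (0.49 in each). HSPA2 was short of 1.5-fold in both, as it was after normexp (0.55) and with the percentile over detected probes (0.52).

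CCT7 had a ratio of 0.36 (-0.04 under quantile normalization), DNAJB12 of 0.32, HSPA9 of 0.21 and both ATF4 and DNAJC18 of 0.18. ATF7IP lay at 0.07, DNAJB11 at -0.06, PPIF and DNAJC27 at -0.09, HSPD1 at -0.14, HSPA13 at -0.23 and ATF2 at -0.26. Of the wider lists, SELENOK (0.76), CEBPB (0.69) and CHORDC1 (0.58) were the highest, NUDC, an HSP90 partner, was at 0.38, and UBE2J1, a ubiquitin-conjugating enzyme of the ER (-0.53), and UFL1, a ligase of ER quality control (-0.40), were the lowest. Within the list of cytosolic partners, SUGT1 (-0.16) and STUB1 (-0.10) were the lowest. ER members lay below the median of all genes in 11 of 16 cases and cytosolic members in 10 of 15. Of the 5 ER genes with the lowest ratios to the control, HSP90B1 had a ratio between the peptides of 0.10, CANX of 0.01, EDEM1 of 0.16, PDIA4 of -0.09 and DNAJB9 of -0.21.

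**Figure D4:**
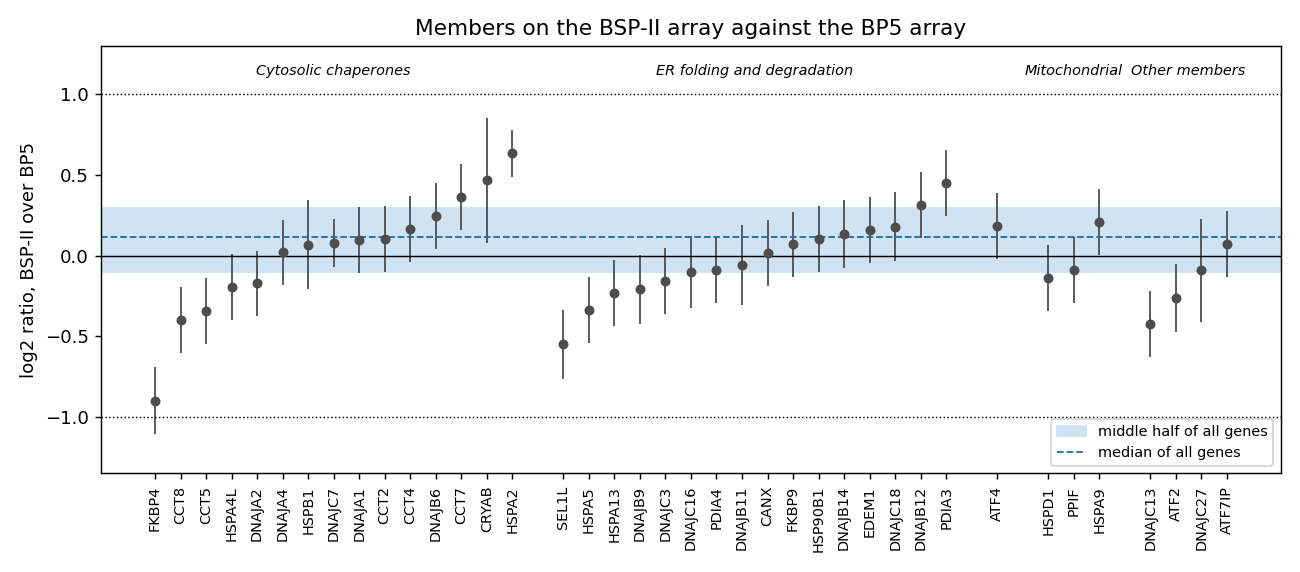
Log2 ratio of the BSP-II array over the BP5 array for the 39 members, by place of the protein, with scanner errors as bars. The shaded band spans the quartiles of all genes and the dashed line their median of 0.11. FKBP4 lies nearest to the dotted 2-fold line, and HSPA2 is the highest member.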

How the data were processed

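Cy3-labelled RNA of each group was hybridised to its own Agilent array on 1 slide. The deposited intensity had its background subtracted and spatial trends removed with Agilent Feature Extraction 10.5.1.1, with a floor for dim spots, per the file headers and the submitters' processing notes. It was not normalized between arrays. The files also flag each spot, by 0 or 1, for lying well above background, for saturation and as an outlier, per the file headers. A second table deposited by the authors holds log2 values for 20085 probes. These correlated with log2 of the scanner intensity at 1.000 on each array, shared a median of 7.75 and were not centred per gene, and the sources used here do not give their normalization.

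Of 43451 spots, 1417 control spots and 153 probes with an outlier flag were left out, and 0 were saturated. Well above background were 46.6% of probes for the control, 38.0% for BP5 and 39.6% for BSP-II, and that share and the single array per group limit precision. Probes were named by RefSeq accession through the GRCg7b gene table, used for names only, and 4000 of 5017 such probes matched. For 150 pairs of probes with the same accession, the log2 signals on the control array correlated at 0.71. A gene's ratio was the mean over its detected, unsaturated probes, and a call needed 2-fold with all such probes of 1 sign. The percentile over all probes was kept as the main scaling, with that over detected probes as an alternative.

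Alternatives were quantile normalization, normexp (offset 50, limma 3.58.1 in R 4.3.3), the authors' log2 values, other filters on dim probes, subtraction of the median ratio of probes within 10 rows and columns, leaving out columns 1 and 2, synonyms and a 1.5-fold threshold. No mean signal column was used for normexp, which took the median signal instead. Other steps used Python 3.11.15, numpy 2.4.6 and pandas 2.3.3. The main scaling and calls were tested on simulated data in which only bright genes changed. That simulation tested neither dim probes, nor differences in detection between arrays, nor the alternatives. Values on every array were given for members past 2-fold, for the 3 highest and 3 lowest of each class by mean peptide ratio and for the 2 highest and 2 lowest between the peptides. Of the wider lists the 2 highest and 2 lowest ratios were named. The members, classes and lists were chosen with earlier results of these data known. Wider-list and marker genes under other settings, SEC62, and other genes given array by array, were chosen after their values were seen.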

Additional observations from a re-analysis of the deposited data

How the results depend on the processing

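Each group held 1 array, so no array could be left out, and no paired analysis was possible because no group has a second replicate. The 2-fold counts of members rest on few genes near the threshold or near background. With the percentile over detected probes, 2 members were higher with BP5 (CRYAB and HSPB1) and 1 was lower with BSP-II than with BP5 (FKBP4). Quantile normalization and the authors' values each left 1 higher with BSP-II (CRYAB). After normexp 0 were higher with BP5, 1 was higher (CCT7) and 0 were lower with BSP-II, and the CRYAB ratio with BP5 turned from 1.23 to -0.0843. With dim probes kept, 2 were higher with BP5 (CRYAB and HSPB2) and 3 with BSP-II (CRYAB, HSPB1 and HSPB2), although HSPB2 was not well above background on any array, and the median of ER members minus that of all genes was -0.23 with BP5 and -0.26 with BSP-II. With neighbours subtracted 2 were higher with BP5 (CRYAB and HSPB1) and 0 lower with BSP-II, where DNAJC13 was at -0.91. At 1.5-fold the counts were 6 higher and 3 lower with BP5, 6 and 2 with BSP-II, and 1 and 1 between the peptides. Synonyms changed no count of members. The stricter filter kept the same genes as the main one, and no member probe lies in columns 1 and 2. Neither of these 2 settings could therefore change a count of members. The cause of these changes was not tested.

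The median of all genes moved with the scaling, from -0.09 to 0.04 with BP5 and from 0.11 to -0.01 between the peptides under the percentile over detected probes, and to 0.11 with BP5 and 0.17 with BSP-II after normexp. Between the peptides 92.7% of the calls over all genes were higher, and 80.0% under that percentile. Relative to that median, 29 of 39 members kept their side with BP5, 24 with BSP-II and 30 between the peptides. The settings compared were quantile normalization, normexp, the authors' values and neighbour subtraction. Quantile normalization and the authors' values were nearly alike, with 73 and 74 genes higher with BP5 and 85 lower in each. They are thus hardly separate checks, and the share of all genes that kept their side was not counted.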

Other observations

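Through older names in the gene table, 5 further genes fitted the rule of symbols and were kept out of the counts. Only SERPINH1, known as HSP47, is a chaperone, which binds procollagen in the ER. Its log2 ratio was -0.01 with BP5, 0.31 with BSP-II and 0.32 between the peptides. GSKIP had ratios of -0.47 and -0.36 with BP5 and BSP-II, LGALSL -0.56 and -0.24 and RBM48 0.13 and 0.49, and AGRN was not well above background on any array. None passed 2-fold.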
